A study of Rattus norvegicus with 22 samples.

Results

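Corticosteroids reach the hippocampus from the adrenal gland and act there through a pair of nuclear receptors, the glucocorticoid receptor Nr3c1 and the mineralocorticoid receptor Nr3c2. The group of genes described here holds both receptors and 6 genes that glucocorticoids are known to induce, namely Fkbp5, Sgk1, Tsc22d3, Zbtb16, Pdk4 and Errfi1. They were listed by name, with no threshold on a measured value but with earlier results of these data known, and made up 8 of the 17172 genes counted. Counts of called genes set beside the shares of all tested genes are therefore descriptions and not tests of the list. All 8 passed the filter on low counts that left 12875 genes for testing.

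RNA-seq was performed on the hippocampus ipsilateral to the injury, taken in bulk from adult male Sprague-Dawley rats. TBI rats received a moderate lateral fluid percussion, a pressure pulse delivered through a craniectomy over the right hemisphere. Sham rats underwent the same craniectomy and the same isoflurane anesthesia without the percussion, so every rat had surgery. The groups were sham day 1 (n = 2), sham day 14 (n = 4), TBI day 1 (n = 4) and TBI day 14 (n = 4), with the day counted from surgery. Day 1 was compared with day 14 within sham and within TBI, since both arms had the surgery and anesthesia 1 day or 14 days before. Within each arm, time since surgery, age and any difference in handling, library preparation or sequencing between the days cannot be told apart. In TBI, time since the percussion is a further such factor. The paper mentions a correction for batch effect. The sample labels name no batch, and the main fit here held no batch term.

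Total counts ranged from 15065540 to 23743703 per sample. Levels are given below as CPM, counts scaled to a common library size and adjusted by the trimmed mean of M-values (TMM), which compares samples but not genes, since gene length was not used. All 10 neuronal markers examined, among them Prox1 of dentate granule cells and Neurod6 of pyramidal cells, passed the filter. Sham day 1 replicate 1 stood apart, with a summed level of 18 choroid plexus markers of 11600 CPM against 234.7 CPM in replicate 2. TBI day 14 replicates 2 and 3 also held such markers, at 2186 and 9104 CPM, and the other 11 samples lay between 171.4 and 285.1 CPM. TBI day 1 replicate 1 had the lowest summed level of neuronal markers, 3042 CPM against 5910 to 10930 CPM in the other 13 samples.

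Unliganded Nr3c1 is held in the cytosol by Hsp90 and co-chaperones, and on hormone binding it enters the nucleus and binds DNA as a dimer or tethers to other factors. Nr3c2 binds corticosterone with higher affinity and is abundant in hippocampal neurons, so it is largely occupied at resting hormone levels, whereas Nr3c1 fills during stress. Fkbp5, a co-chaperone induced by Nr3c1, in turn lowers the hormone affinity of the receptor.

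Within sham, 5 of the 8 genes were called higher at day 1 than at day 14 and 0 lower, where 11.3% of all tested genes were called higher and 7.88% lower. The 5 were Nr3c1, Sgk1, Tsc22d3, Pdk4 and Errfi1, and the sham day 1 samples lay above all sham day 14 samples for the same 5, as they did for 21.3% of all tested genes. All 8 log2 fold changes were above 0, with a median of 0.70 against 0.02 over all tested genes. Within TBI, 4 of the 8 were called higher and 0 lower, where 21.9% of all tested genes were called higher and 17.6% lower. These were Fkbp5, Sgk1, Pdk4 and Errfi1, and TBI day 1 lay above TBI day 14 without overlap for Fkbp5, Sgk1 and Errfi1, as for 19.1% of all tested genes. The median log2 fold change of the 8 was 0.55 against 0.02 over all tested genes.

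Markers of other cell types moved with the days. In sham, 16 of 17 tested choroid plexus markers were called higher at day 1, and their summed level was high in replicate 1 alone. Of 10 neuronal markers 2 were called higher and 1 lower in sham, and 1 of 7 astrocyte markers and 1 of 5 blood cell markers higher. In TBI at day 1, 5 of 5 blood cell markers and 6 of 8 endothelial markers were called higher, and 12 of 17 choroid plexus markers, 7 of 10 oligodendrocyte markers, 5 of 8 microglial and macrophage markers and 2 of 10 neuronal markers lower. Among all tested genes 21.9% were called higher and 17.6% lower in TBI, and 11.3% and 7.88% in sham. The neuronal count in TBI lay near the share called lower. Of 7 astrocyte markers 1 was called higher and 1 lower in TBI, and of 7 fibroblast and meningeal markers 1 higher. Summed astrocyte markers were at 11140 to 17280 CPM in TBI day 1 and 7524 to 11370 CPM in TBI day 14. They were at 4535 to 7062 CPM in sham day 1 and 4278 to 5387 CPM in sham day 14. For TBI against sham, 1 of the 7 astrocyte markers was called higher and 0 lower, on either day. The 7 had a median log2 difference between arms of -0.31 (day 1) or 0.03 (day 14). The higher sums in TBI were therefore not a rise shared by the 7 markers. The part of all these cells in the day effects of the 8 genes was not tested.

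**Figure D1:**
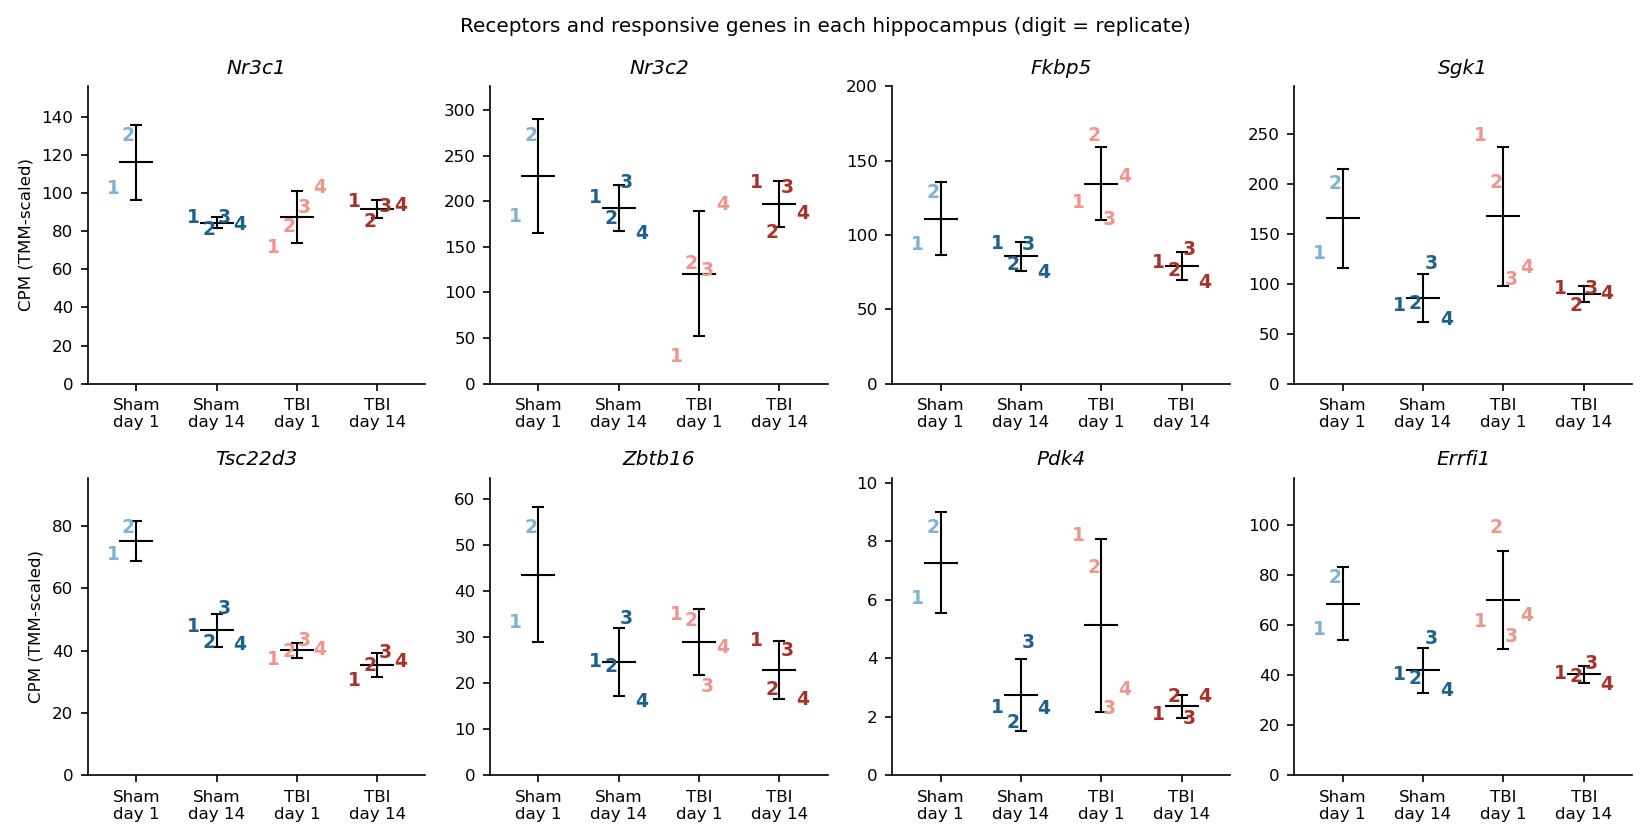
TMM-scaled CPM of the 8 genes in each of 14 hippocampi (digit, replicate), with bars at the group mean and 1 SD and every axis starting at 0. Sgk1 and Errfi1 separate day 1 from day 14 in both arms, Tsc22d3 separates sham from TBI at both days, and Nr3c2 is lowest in TBI day 1 replicate 1 at 29.7 CPM.

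Of the receptors, Nr3c1 was higher at day 1 than at day 14 in sham and, on all 14 samples, Nr3c2 was not called between days in either arm. Nr3c1 was at 103 and 130.4 CPM in the 2 sham day 1 samples and at 80.8 to 87.2 CPM in the 4 sham day 14 samples. The day 1 samples both lay above all day 14 samples. Nr3c1 rose 1.38-fold (log2 fold change 0.46, SE 0.14, edgeR adjusted p = 0.0387), a call kept in 10 of 15 alternatives. In TBI its levels were 71.5, 82.8, 92.4 and 103 CPM at day 1 and 95.6, 85.1, 92.9 and 93.5 CPM at day 14, and the groups overlapped. The TBI log2 fold change between days was -0.07 (SE 0.12, edgeR adjusted p = 0.679). The difference between the TBI and sham day effects was -0.53 on the log2 scale (SE 0.19, 95% interval -0.90 to -0.16, edgeR adjusted p = 0.135), so the day effects were not called different. TBI day 1 against sham day 1 gave -0.41 (SE 0.14, edgeR adjusted p = 0.0577). This was called in 6 of 15 alternatives, with log2 fold changes from -0.58 to -0.23.

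Nr3c2 showed its widest spread in TBI day 1, where it was at 29.7, 132, 124 and 196 CPM. Its levels were 184 and 272 CPM in sham day 1, 164 to 221 CPM in sham day 14 and 166 to 221 CPM in TBI day 14. TBI day 1 replicates 1, 2 and 3 lay below every other sample and replicate 4 lay within the range of the other groups. The log2 fold change of TBI day 1 against TBI day 14 was -0.71 (SE 0.36, edgeR adjusted p = 0.133), and without TBI day 1 replicate 1 it was -0.39 (adjusted p = 0.0989). It ran from -1.05 to -0.39 over 17 alternatives and was called in 1, without TBI day 1 replicate 4 (-1.05, edgeR adjusted p = 0.0355). That of TBI day 1 against sham day 1 was -0.92 (SE 0.43, edgeR adjusted p = 0.144), from -1.26 to -0.60 over 15 alternatives. It was called in 2 of them, without TBI day 1 replicate 4 (-1.26, edgeR adjusted p = 0.0408) and without both sham day 1 replicate 1 and TBI day 1 replicate 1 (-0.85, adjusted p = 0.0183). Within sham the change between days was 0.24 (SE 0.44, edgeR adjusted p = 0.735).

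The sample with the least Nr3c2 was also the sample with the least neuronal marker RNA. Neuronal markers summed to 3042 CPM in TBI day 1 replicate 1 and to 6377 to 6840 CPM in the other 3 TBI day 1 samples. Of the 10 neuronal markers, 4 were called lower and 0 higher in TBI day 1 against sham day 1, and their median log2 fold change was -0.98. Among all tested genes 7.93% were called lower and 11.2% higher in that comparison. In bulk tissue, fewer neurons and less RNA per neuron cannot be told apart, and the part of the neuronal markers in the Nr3c2 values was not tested.

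The balance of the receptors was followed as the log2 ratio of Nr3c2 CPM to Nr3c1 CPM, of which differences between samples, not the absolute value, can be read. The ratio was 0.416, 1.597, 1.34 and 1.90 in the 4 TBI day 1 samples and 1.95 to 2.32 in the 4 TBI day 14 samples. It was 1.79 and 2.09 in sham day 1 and 1.97 to 2.53 in sham day 14. All TBI day 1 ratios lay below all TBI day 14 ratios. The mean log2 ratio was 0.19 ± 0.99 (SD, n = 4) in TBI day 1 and 1.10 ± 0.13 (SD, n = 4) in TBI day 14, a difference of -0.91. The exact two-sided permutation test gave p = 0.0286, the smallest this design allows, and the value adjusted over 4 comparisons was 0.114. Without TBI day 1 replicate 1 the difference was -0.42. The exact permutation test gave p = 0.267 for sham day 1 against sham day 14 and for TBI day 1 against sham day 1, where 0.133 is the smallest p possible, and p = 0.514 for the arms at day 14.

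**Figure D2:**
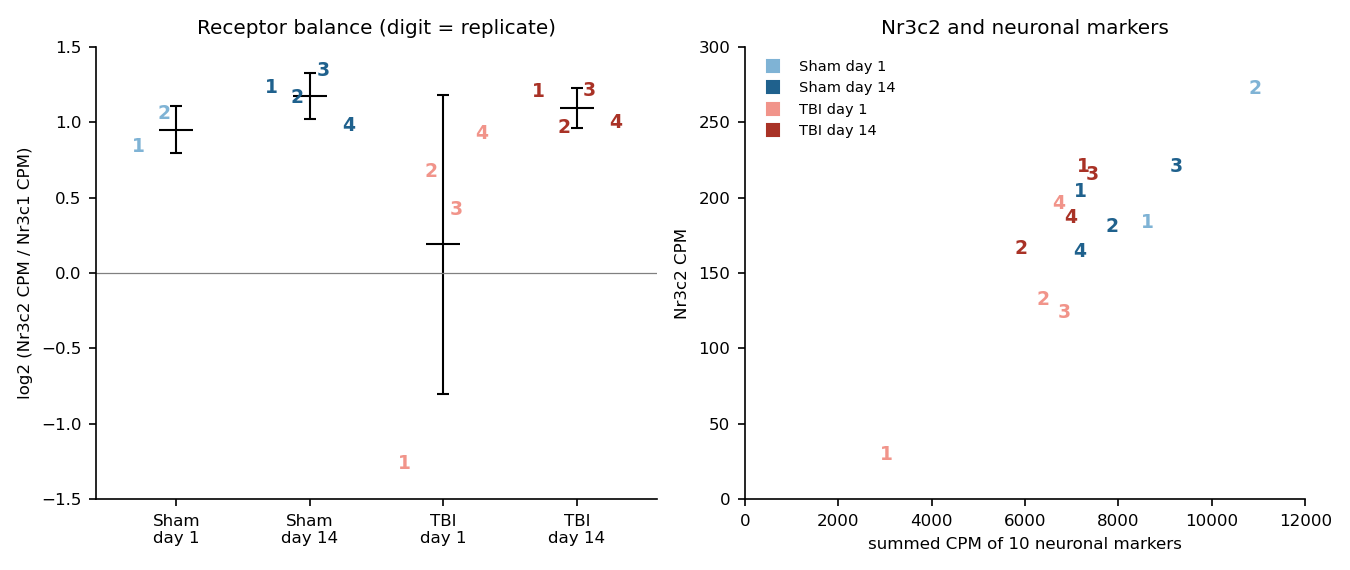
Left, the log2 ratio of Nr3c2 CPM to Nr3c1 CPM in each of 14 hippocampi, with bars at the group mean and 1 SD and digits for the replicate. Right, Nr3c2 CPM against the summed CPM of 10 neuronal markers, where TBI day 1 replicate 1 sits lowest on both axes at 29.7 and 3042 CPM.

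The 6 responsive genes differ in what they do. Fkbp5 encodes the co-chaperone above, Sgk1 a kinase that controls ion channels and transporters, Tsc22d3 the anti-inflammatory leucine zipper protein GILZ, Zbtb16 a zinc finger repressor, Pdk4 a kinase that inhibits pyruvate dehydrogenase, and Errfi1 a feedback inhibitor of the EGF receptor. The bases before the start site of those called below are shown, from RefSeq on the build GRCr8. Counts were made on the older build rn5, so these windows describe the genes and not the reads. Of the 8 genes, 6 had windows, 11 in all, and none was found for Nr3c2 or Zbtb16. Each line runs 5′ to 3′ over the 150 bases that end 1 base before the start, with 1 of several starts shown for Sgk1 and Tsc22d3. The last line, Fam107a, is a further glucocorticoid-induced gene, shown from 250 to 151 bases before its start. Capitals mark the letters TATAAA on the strand of the gene, the letters GGGCGG on either strand, and in Fam107a a dimer-like element, GNACA and TGTNC set 3 bases apart. The starts shown for Sgk1 and Tsc22d3 carry TATAAA. Each of these genes also has a start with GGGCGG and without TATAAA, so the marks depend on the start shown.
Fkbp5 (chr20:6543556-6543705, minus strand): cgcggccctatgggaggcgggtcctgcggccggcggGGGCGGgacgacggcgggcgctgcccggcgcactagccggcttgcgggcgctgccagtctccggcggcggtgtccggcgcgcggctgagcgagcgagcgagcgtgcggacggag
Sgk1 (chr1:24804832-24804981, minus strand): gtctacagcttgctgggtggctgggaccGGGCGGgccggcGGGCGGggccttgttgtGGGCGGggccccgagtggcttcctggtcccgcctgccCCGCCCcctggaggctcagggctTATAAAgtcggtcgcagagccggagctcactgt
Tsc22d3 (chrX:109010035-109010184, minus strand): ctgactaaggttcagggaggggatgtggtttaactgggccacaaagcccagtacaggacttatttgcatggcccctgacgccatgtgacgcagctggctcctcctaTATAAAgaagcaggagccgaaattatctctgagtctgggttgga
Pdk4 (chr4:34568330-34568479, minus strand): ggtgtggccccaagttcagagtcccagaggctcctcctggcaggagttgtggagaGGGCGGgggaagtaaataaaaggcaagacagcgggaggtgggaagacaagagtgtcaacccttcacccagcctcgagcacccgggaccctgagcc
Errfi1 (chr5:166606691-166606840, plus strand): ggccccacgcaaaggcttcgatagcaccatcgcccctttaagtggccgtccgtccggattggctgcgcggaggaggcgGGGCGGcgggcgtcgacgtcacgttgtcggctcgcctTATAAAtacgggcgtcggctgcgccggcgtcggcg
Fam107a (chr15:19046331-19046430, plus strand): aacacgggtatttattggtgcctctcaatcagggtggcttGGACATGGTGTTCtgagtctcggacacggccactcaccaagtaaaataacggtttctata

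The receptor's consensus element, AGAACA and TGTTCT set 3 bases apart and searched over the 250 bases before each start on both strands, was in 0 of the 11 windows, in 0 of 31 windows of the further induced genes described below and in 0.012% of all 33469 windows. The looser GNACA and TGTNC at the same spacing was in 0 of the 11 and in 1 of the 31, that of Fam107a at position -210 from the start, against 0.373% of all windows. The single hexamer AGAACA or TGTTCT was in 0 of 11 windows, in 4 of the 31 and in 17.5% of all. TATAAA on the strand of the gene was in 4 of 11 windows, in 2 of the 31 and in 8.06% of all, and GGGCGG on either strand in 9 of 11, in 18 of the 31 and in 30.5% of all. These are matches of letters in short windows of few genes and locate no binding site. Windows of the same gene can overlap and are not independent. A GGGCGG site of Plin4, a further induced gene absent from the genes counted, was met from several nearby starts. The absence of a match covers these bases only.

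Sgk1 rose at day 1 in both arms. It was at 130.1 and 201 CPM in sham day 1 and at 78.0, 79.9, 120.2 and 64.4 CPM in sham day 14. In TBI it was at 248, 201, 104 and 116 CPM at day 1 and at 78.0 to 95.5 CPM at day 14. Day 1 lay above day 14 without overlap in each arm, and within TBI day 1 replicates 1 and 2 were well above replicates 3 and 4. The change was 1.93-fold in sham (log2 fold change 0.95, SE 0.31, edgeR adjusted p = 0.0444) and 1.86-fold in TBI (0.90, SE 0.26, adjusted p = 0.0141). The difference between these day effects was -0.05 on the log2 scale, with a 95% interval from -0.86 to 0.75. The TBI call was kept in all 17 alternatives and the sham call in 9 of 15, not in limma-voom (log2 fold change 0.95, adjusted p = 0.0528).

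Errfi1 also rose at day 1 in both arms. It was at 58.1 and 78.8 CPM in sham day 1 against 33.8 to 54.5 CPM in sham day 14, and at 61.4, 99.1, 55.6 and 63.7 CPM in TBI day 1 against 36.2 to 44.8 CPM in TBI day 14. Neither arm overlapped between days. The gene rose 1.64-fold in sham (log2 fold change 0.71, SE 0.23, edgeR adjusted p = 0.0400) and 1.74-fold in TBI (0.80, SE 0.19, adjusted p = 0.00414). The TBI call was kept in all 17 alternatives and the sham call in 9 of 15. The difference between the day effects was 0.09, with a 95% interval from -0.50 to 0.67. At day 1 the arms differed by 0.03 on the log2 scale (95% interval -0.42 to 0.48).

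Pdk4 had the largest fold change of the 8 in each arm. It was at 6.04 and 8.48 CPM in sham day 1 and at 2.29, 1.802, 4.54 and 2.29 CPM in sham day 14. TBI day 1 split into replicates 1 and 2 at 8.20 and 7.10 CPM and replicates 3 and 4 at 2.29 and 2.91 CPM, against 1.94 to 2.69 CPM in TBI day 14. The TBI groups overlapped, as replicate 3 lay within the day 14 range. The change was 2.65-fold in sham (log2 fold change 1.40, SE 0.46, edgeR adjusted p = 0.0444) and 2.18-fold in TBI (1.12, SE 0.40, adjusted p = 0.0356). The TBI call was kept in 6 of 17 alternatives and the sham call in 8 of 15.

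On all 14 samples Fkbp5 was called in TBI and not in sham, and its day effects in the arms were not called different. It was at 122, 167, 110.3 and 139 CPM in TBI day 1 and at 68.2 to 90.4 CPM in TBI day 14, with no overlap. In sham it was at 93.7 and 128 CPM at day 1 and at 74.6 to 93.9 CPM at day 14, and sham day 1 replicate 1 lay within the day 14 range. Fkbp5 rose 1.70-fold in TBI (log2 fold change 0.77, SE 0.15, edgeR adjusted p = 0.00115), a call kept in all 17 alternatives. The sham change was 0.37 (SE 0.18, edgeR adjusted p = 0.156). It ran from 0.13 to 0.58 over 15 alternatives and was called in 1, without both sham day 1 replicate 1 and TBI day 1 replicate 1 (0.58, adjusted p = 0.0474). The difference between the day effects was 0.39 (95% interval -0.08 to 0.86, edgeR adjusted p = 0.391).

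Tsc22d3 rose at day 1 in sham and was lower in TBI than in sham at day 1. It was at 70.7 and 79.7 CPM in sham day 1 and at 47.8, 42.5, 53.6 and 42.1 CPM in sham day 14. In TBI it was at 37.1, 39.7, 43.2 and 40.2 CPM at day 1 and at 30.3, 35.3, 39.5 and 36.5 CPM at day 14. Every TBI sample lay below every sham sample of its day, as was so for 14.1% of all tested genes at day 1 and 5.86% at day 14. In sham Tsc22d3 rose 1.62-fold at day 1 (log2 fold change 0.69, SE 0.14, edgeR adjusted p = 0.00563), and in TBI the change between days was 0.18 (SE 0.12, adjusted p = 0.239). The difference between the day effects was -0.52 (SE 0.18, 95% interval -0.87 to -0.16), with an adjusted p of 0.132 in edgeR.

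Tsc22d3 was also the 1 gene of the 8 called between TBI and sham at day 1, where 11.2% of all tested genes were called higher and 7.93% lower. It fell by 0.91 on the log2 scale, to 0.533 of its sham day 1 level (SE 0.14, edgeR adjusted p = 0.000435). The call was kept in all 15 alternatives, with log2 fold changes from -0.99 to -0.82. At day 14 the log2 fold change was -0.39 (SE 0.12, edgeR adjusted p = 0.0805), which DESeq2 called (-0.40, adjusted p = 0.0250). At day 14 edgeR called 0 of the 8 genes, with 1 at an unadjusted p under 0.05, limma-voom called 0 and DESeq2 called 1. Among all tested genes 4.07% were called higher and 0.365% lower at that day.

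Zbtb16 was called in 0 of the comparisons between groups by edgeR on all 14 samples. It was at 33.1 and 53.9 CPM in sham day 1, at 15.9 to 34.0 CPM in sham day 14, at 19.3 to 34.9 CPM in TBI day 1 and at 16.4 to 29.2 CPM in TBI day 14. Sham day 1 replicate 2 was above all other samples, and the ranges of the groups compared overlapped. The log2 fold change between days was 0.83 in sham (SE 0.31, edgeR adjusted p = 0.0726) and 0.34 in TBI (SE 0.26, adjusted p = 0.317). The sham change ran from 0.43 to 1.13 over 15 alternatives and was called in 3 of them. These left out sham day 1 replicate 1 (1.13, edgeR adjusted p = 0.0449), sham day 14 replicate 3 (1.02, adjusted p = 0.0328), or both sham day 1 replicate 1 and TBI day 1 replicate 1 (1.13, adjusted p = 0.0271).

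**Figure D3:**
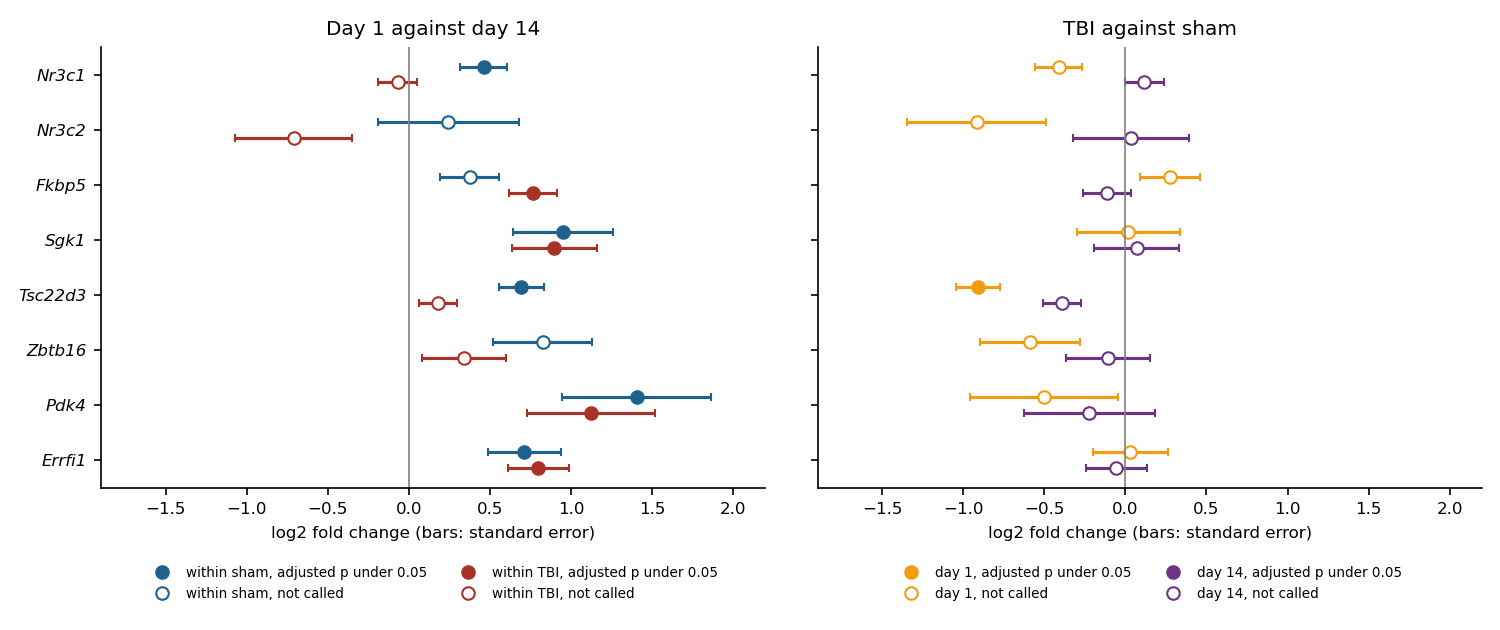
Log2 fold changes of the 8 genes between day 1 and day 14 within each arm (left) and between TBI and sham at each day (right), with bars at 1 standard error and filled points for adjusted p under 0.05 in edgeR. In sham 5 genes and in TBI 4 genes are filled at left, and Tsc22d3 at day 1 is filled at right.

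The difference between the day effects of TBI and sham was called for 0 of the 8 genes by edgeR, limma-voom and DESeq2, with 2 lower at an unadjusted edgeR p under 0.05 (Nr3c1 and Tsc22d3). For this difference 2.24% of all tested genes were called with the higher day effect in TBI and 1.44% with the lower. The sham day effect rests on 2 sham day 1 samples that differed from each other. Replicate 2 had the higher level and replicate 1, the sample with choroid plexus markers, the lower level for 8 of the 8 genes. Without replicate 1, 5 of the 8 were called higher in sham, and without replicate 2, 0 were by edgeR, with log2 fold changes from -0.07 for Nr3c2 to 1.14 for Pdk4 in the latter. Without sham day 14 replicate 1, 2 or 4 the count was 1 in each case, Tsc22d3, and with both sham day 1 replicate 1 and TBI day 1 replicate 1 left out it was 7. With a choroid plexus score as a covariate, 3 remained, Nr3c1, Sgk1 and Tsc22d3.

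The level of the responsive genes also differed between samples of 1 group. Relative to sham day 14, the mean log2 level of the 6 responsive genes was 0.59 and 1.07 in sham day 1 replicates 1 and 2. In TBI day 1 it was 0.76 and 0.87 in replicates 1 and 2 and 0.09 and 0.33 in replicates 3 and 4. Sham day 14 replicate 3, at 0.43, had the highest level in its group of 5 of the 6 genes and replicate 4, at -0.29, the lowest of 5 of the 6. The highest neuronal marker sums were in sham day 1 replicate 2 (10930 CPM) and sham day 14 replicate 3 (9239 CPM), the samples with the most of the responsive genes in their groups, and their part in these values was not tested. In TBI day 1 the lowest sum was in replicate 1.

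Beyond the 8, 27 further genes known to be induced by glucocorticoids were followed, of which 25 were tested. This list too was chosen with earlier results of these data known. Neither hormone levels nor receptor activity are part of these data. Other signals induce some of these genes as well, as given below for Lcn2 and Mt1a, and which signal moved them was not tested. Within sham 9 were called higher at day 1 and 0 lower, where 11.3% of all tested genes were called higher and 7.88% lower. Within TBI 15 were called higher and 0 lower, where the shares of all tested genes were 21.9% and 17.6%. The median log2 fold change of the 25 was 0.46 in sham and 0.85 in TBI, against 0.02 over all tested genes in each. The sham count ran from 2 (without sham day 14 replicate 2 or 4) to 10 over the alternatives and was 5 in limma-voom, 3 without sham day 1 replicate 1 or sham day 14 replicate 1 and 5 without sham day 1 replicate 2.

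The largest increases in sham were those of Lcn2, Cdkn1a, Gpd1 and Klf9. Klf9, a transcription factor that responds to glucocorticoids and thyroid hormone, was at 164 ± 46.4 CPM (SD, n = 2) in sham day 1 and at 77.7 ± 24.9 CPM (SD, n = 4) in sham day 14. It rose 2.11-fold (log2 fold change 1.08, SE 0.29, edgeR adjusted p = 0.0195), and its TBI change was 0.31 (adjusted p = 0.332). These day effects of Klf9 were not called different (edgeR adjusted p = 0.285). Gpd1, the cytosolic glycerol-3-phosphate dehydrogenase, rose 2.19-fold in sham (log2 fold change 1.13, SE 0.32, edgeR adjusted p = 0.0257) and 4.35-fold in TBI (2.12, SE 0.28, adjusted p = 5.71e-05). Cdkn1a, the cell cycle inhibitor p21, rose 2.50-fold in sham (1.32, SE 0.42, edgeR adjusted p = 0.0396) and 3.05-fold in TBI (1.61, SE 0.35, adjusted p = 0.00246). In sham day 1, Cdkn1a was at 23.3 CPM in replicate 1, the sample with choroid plexus markers, and at 12.7 CPM in replicate 2. Sham day 14 samples were at 5.57 to 10.0 CPM. Fam107a, whose promoter is shown above, was at 1522 ± 260.0 CPM (SD, n = 2) in sham day 1 and 764 ± 38.9 CPM (SD, n = 4) in sham day 14. Its log2 fold change was 0.99 in sham (edgeR adjusted p = 0.0129) and 0.28 in TBI (adjusted p = 0.291). TBI day 1 samples of Fam107a ran from 675.5 to 1528 CPM, and its day effects were not called different (edgeR adjusted p = 0.232).

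In TBI the largest increases were those of Lcn2, Mt1a, Hif3a and Gpd1. Lcn2, an iron-binding acute phase protein that cytokines induce as well, was at 310.4 to 637 CPM in TBI day 1 and at 2.90 to 10.2 CPM in TBI day 14. It rose 76.8-fold (log2 fold change 6.26, SE 0.43, edgeR adjusted p = 3.82e-07). In sham it was at 4.90 and 1.43 CPM at day 1 and at 0.379 to 1.31 CPM at day 14, an increase of 3.44-fold (1.78, SE 0.57, adjusted p = 0.0414). The metallothionein Mt1a, which metals and glucocorticoids induce and whose reads may be shared with its relatives, rose 7.74-fold in TBI (2.95, SE 0.26, edgeR adjusted p = 3.42e-06). Hif3a rose 5.57-fold in TBI (2.48, SE 0.68, edgeR adjusted p = 0.0104) on the strength of replicates 1 and 2, which held 209 and 234 counts against 14 and 32 in replicates 3 and 4. For 5 of the 25 genes, Lcn2, Mt1a, Mt2A, Cebpd and Htra1, the day effect of TBI was called larger than that of sham. This was so for 2.24% of all tested genes. Blood cell markers also moved between days, with 5 of 5 called higher in TBI (338 to 839 CPM at day 1, 71.9 to 115 CPM at day 14) and 1 of 5 in sham, and their part was not tested. The shares of all tested genes called higher were 21.9% in TBI and 11.3% in sham. Between arms, 7 of the 25 were called higher and 1 lower (Gjb6) in TBI at day 1, and 2 were called higher (Lcn2 and Cebpd) and 0 lower at day 14. Among all tested genes 11.2% were called higher and 7.93% lower at day 1, and 4.07% and 0.365% at day 14.

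**Figure D4:**
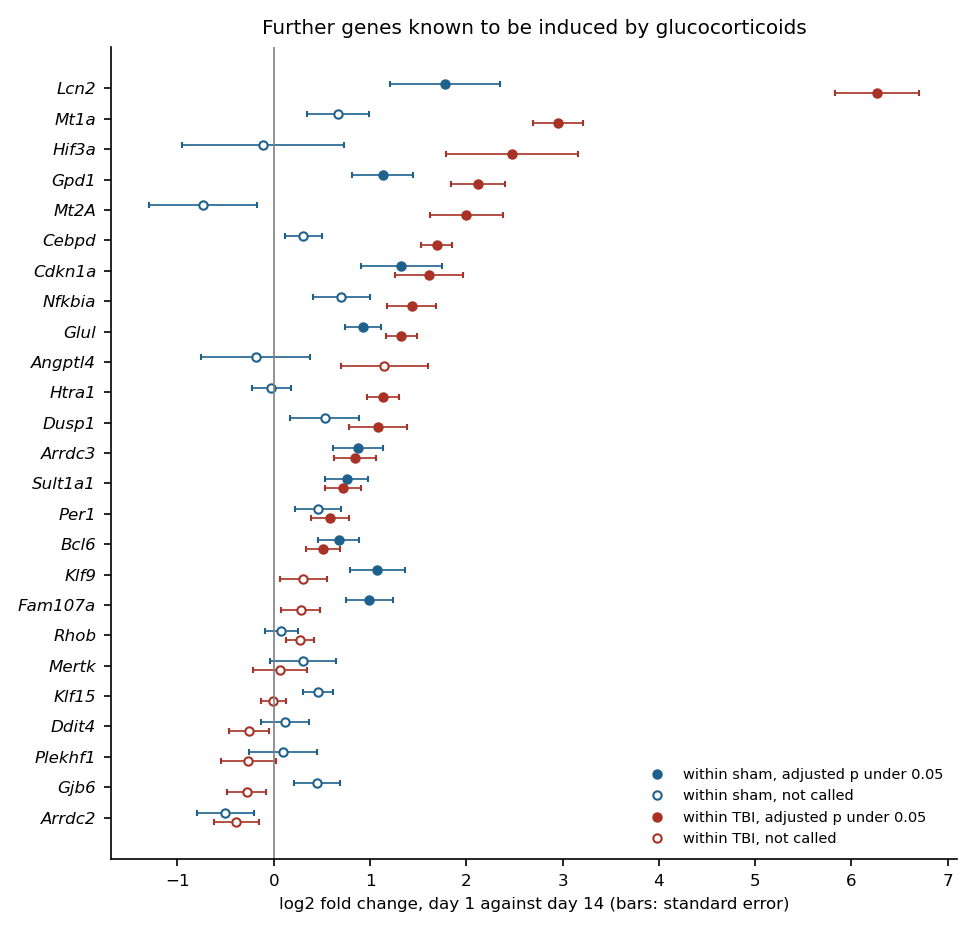
Log2 fold changes of 25 further glucocorticoid-induced genes between day 1 and day 14 in sham (blue) and TBI (red), with bars at 1 standard error and filled points for adjusted p under 0.05 in edgeR. In sham 9 and in TBI 15 points are filled, all above 0, and Lcn2 in TBI reaches 6.26.

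Some genes of the chaperone complex that holds the receptor were called between days. Of 10 tested, 4 were called higher and 1 lower at day 1 in sham, where 11.3% of all tested genes were called higher and 7.88% lower. In TBI 5 of the 10 were called higher and 0 lower, against 21.9% and 17.6% of all tested genes. Ptges3, the Hsp90 co-chaperone p23 that stabilizes the hormone-binding state, rose 2.46-fold in sham (log2 fold change 1.30, SE 0.29, edgeR adjusted p = 0.00883) and 2.59-fold in TBI (1.37, SE 0.25, adjusted p = 0.000626). St13, a co-chaperone of Hsp70, rose 2.21-fold and 2.17-fold (edgeR adjusted p = 0.00463 and 0.000344). Bag1, another Hsp70 co-chaperone, rose 1.40-fold and 1.75-fold (edgeR adjusted p = 0.0346 and 0.000164). The immunophilin Fkbp4, a counterpart of Fkbp5 that favors nuclear transport of the receptor, rose 1.63-fold in sham (0.71, edgeR adjusted p = 0.0375), with 0.39 in TBI (adjusted p = 0.110). Between the arms its day effects were not called different (edgeR adjusted p = 0.575). Ppid, a cyclophilin of the same complexes, fell by 0.68 on the log2 scale in sham (edgeR adjusted p = 0.0215). In TBI, Hsp90aa1 rose 1.76-fold and Hsp90ab1 1.42-fold (edgeR adjusted p = 0.0105 and 0.0359). Their sham changes were of similar size, 1.72-fold and 1.54-fold, and were not called (edgeR adjusted p = 0.0534 and 0.0548). Hspa8 was listed at 1 count in each sham day 1 sample and at 0 in the other 12 samples and was not tested. Several genes of this complex have near-identical processed copies in the genome, so the assignment of their reads is uncertain.

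Genes upstream of the receptors were followed in 2 lists, and coregulators, paralogs and partners of the 8 genes in 3 more. Between days, 19.1% of all tested genes were called in sham and 39.5% in TBI in either direction, and the counts of these short lists are read against those shares. Of 6 tested genes of steroid metabolism and transport, 0 were called in sham by edgeR, with 1 at an unadjusted p under 0.05, and 1 rose and 1 fell in TBI. Hsd11b1, which regenerates active corticosterone from its inert metabolite, was at 78.4 to 135 CPM in TBI day 1 and at 48.2 to 70.8 CPM in TBI day 14. It rose 1.77-fold (log2 fold change 0.82, SE 0.18, edgeR adjusted p = 0.00251), and its sham change was -0.05 (adjusted p = 0.901). The day effects of Hsd11b1 in the arms were not called different (edgeR adjusted p = 0.106). Abcb1b, a P-glycoprotein gene whose product exports steroids, was at 1.30 to 6.36 CPM in TBI day 1 and at 14.5 to 18.6 CPM in TBI day 14, and fell by 1.78 on the log2 scale (SE 0.37, edgeR adjusted p = 0.00169). Its close paralog Abcb1a had a log2 fold change of 0.44 in TBI (edgeR adjusted p = 0.151), and how short reads were split between the pair is uncertain. Of 6 tested genes of corticotropin-releasing hormone, vasopressin and melanocortin signaling, edgeR called 0 in either arm, with 1 in sham and 2 in TBI lower at an unadjusted p under 0.05. Crhbp, which sequesters corticotropin-releasing hormone, had log2 fold changes of -0.78 in sham and -0.65 in TBI (edgeR adjusted p = 0.0930 and 0.0515).

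Of 9 tested coregulators of steroid receptors, edgeR called 1 in sham and 0 in TBI, with 0 in TBI also at an unadjusted p under 0.05. That 1 was Ppargc1a, a coactivator of mitochondrial genes, at 27.9 and 43.5 CPM in sham day 1 and 14.97 to 24.6 CPM in sham day 14, an increase of 1.93-fold (log2 fold change 0.95, SE 0.24, edgeR adjusted p = 0.0169). In TBI day 1 it was 1.12 lower than in sham day 1 on the log2 scale (edgeR adjusted p = 0.00578, log2 fold change -1.12). In the receptors' own family, the progesterone receptor Pgr was not called between days (log2 fold changes 0.62 in sham and 0.20 in TBI, edgeR adjusted p = 0.311 and 0.687).

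Among 10 tested paralogs of the 8 genes, 3 were called higher in sham and 2 higher and 1 lower in TBI, where 19.1% and 39.5% of all tested genes were called. Pdk2 and Pdk1, which inhibit pyruvate dehydrogenase as Pdk4 does, rose 1.67-fold and 1.44-fold in sham (edgeR adjusted p = 0.00573 and 0.0426) and 1.33-fold and 1.31-fold in TBI (adjusted p = 0.0162 and 0.0376). The third in sham was Fkbp4. Sgk2, a kinase related to Sgk1, fell by 1.94 on the log2 scale in TBI (SE 0.37, edgeR adjusted p = 0.000941), from 3.89 ± 0.621 CPM (SD, n = 4) at day 14 to 1.02 ± 0.646 CPM (SD, n = 4) at day 1. Among 12 tested genes whose products the 8 act on, 3 rose in sham and 2 in TBI, the latter below the 39.5% of all tested genes called in TBI. Pdha1, the pyruvate dehydrogenase subunit that Pdk4 phosphorylates, rose 2.25-fold in sham and 1.73-fold in TBI (edgeR adjusted p = 0.00385 and 0.00371). Ndrg2, a substrate of Sgk1, rose 1.74-fold in each arm (edgeR adjusted p = 0.0162 and 0.00211). Foxo1, a transcription factor that Sgk1 inhibits, rose 1.75-fold in sham (edgeR adjusted p = 0.0330) and had a log2 fold change of -0.05 in TBI (adjusted p = 0.856). Its day effects in the arms were not called different (edgeR adjusted p = 0.151).

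Patterns across the 14 samples were compared by Pearson's r of log2 CPM, as a description in which samples share their group, depth and tissue makeup. Between the 8 genes, r was highest for Fkbp5 with Errfi1 (0.94), Sgk1 with Pdk4 (0.90) and Sgk1 with Errfi1 (0.87). The receptors had r = 0.65 with each other, and Nr3c2 had r = -0.49 with Sgk1. Among 11831 genes with a mean log2 CPM above 0, the most alike were Rab3ip (0.97), Pcmtd1 and Bcl11a for Nr3c1, and Sipa1l3 (0.97), St8sia1 and Fbxo33 for Nr3c2. For the responsive genes they were Tead1 (0.95), Sod2 and Drg1 for Fkbp5, Gbe1 (0.96), Asap1 and Map3k9 for Sgk1, and Eny2 (0.96), Sod2 and Gtdc1 for Errfi1. Pdk4 was most like Fam43a (0.95), Sgk1 and RGD1311783, Tsc22d3 most like Ahcyl1 (0.92), Nap1l5 and Fgf12, and Zbtb16 most like Atg13 (0.91) and Oxr1.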

How the data were processed

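Polyadenylated RNA of 14 rat hippocampi was read as single-end libraries. Per the labels and methods, STAR 2.4.2a aligned the reads to rn5 and featureCounts 1.5.0 assigned them to UCSC genes, and the raw counts were taken as deposited by the authors. The strand setting of the counting is not given in the sources used here, so overlapping antisense genes cannot be told apart. The H3K4me3 peak lists of the series were not used here, since they give rn5 positions without gene names.

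Counts were fitted with edgeR 4.0.16 (R 4.3.3). Library sizes were scaled by TMM, filterByExpr kept 12875 of 17172 genes, and a quasi-likelihood fit held a mean for each of the 4 groups over the 14 samples. Two-sided p-values carry the Benjamini-Hochberg adjustment across every gene tested, with a threshold of 0.05. Intervals are at a nominal 95%, built from the SE by a normal approximation. They are narrower than the quasi-likelihood test implies, and calls rest on that test. The study used limma-voom, tried here with limma 3.58.1 as an alternative. The others were DESeq2 1.42.0, median-of-ratios factors, no filter, at least 10 counts in every sample, only the groups compared, a choroid plexus score as covariate, the replicate number as a block and each sample left out. Leaving out sham day 1 replicate 1 and TBI day 1 replicate 1 together was chosen after seeing the data. The lone sample of an arm was then assumed to vary like the other groups. Samples were grouped by their labels. The script was tested on simulated data. Ratios of the receptors were tested by exact permutation in Python 3.11.15, and CPM on the log2 scale used a prior count of 2.

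The 8 genes, the further lists and the marker lists were chosen with earlier results of these data known. From each further list, up to 4 called genes with the largest increase and up to 4 with the largest decrease in each arm were named. Mt2A, Cebpd, Htra1, Fam107a, Gjb6, Crhbp, Abcb1a, Pgr and Hspa8, where named, were chosen after their values were seen. Some items that fall under these choices are not reported here.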

Additional observations from a re-analysis of the deposited data

Results flagged for a closer look

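For 5 of the 25 further glucocorticoid-induced genes tested, the day effect of TBI exceeded that of sham by the edgeR test of the difference itself. This was so for 2.24% of all tested genes. The difference on the log2 scale was 4.48 for Lcn2 (SE 0.74, adjusted p = 0.00533), 2.73 for Mt2A (SE 0.68, adjusted p = 0.0393), 2.29 for Mt1a (SE 0.42, adjusted p = 0.00903), 1.39 for Cebpd (SE 0.25, adjusted p = 0.00886) and 1.15 for Htra1 (SE 0.27, adjusted p = 0.0280). With a choroid plexus score as a covariate 1 of the 5 calls was left, and limma-voom called 3. For the 8 receptor and responsive genes, edgeR, limma-voom and DESeq2 called 0, with 2 at an unadjusted edgeR p under 0.05.

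In the 27 groups of 4 samples examined for a sample far from the others, 0 passed Dixon's critical value at 95%, where chance passes about 1 in 20.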

How the results depend on the processing

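The count of the 8 genes called between days in sham was 5, and it was 3 with a choroid plexus score as covariate and 2 with the replicate block, and from 0 to 6 with 1 sample left out. The count in TBI was 4 and stayed between 3 and 5 throughout. The count for TBI against sham at day 1 was 1, and it was 2 in DESeq2, 2 with the covariate, 2 with the replicate block, 3 without both sham day 1 replicate 1 and TBI day 1 replicate 1 (the doubted pair below) and from 1 to 3 with 1 sample left out. DESeq2 called 1 gene at day 14, and leaving out the doubted pair gave 1 gene, Nr3c1 (-0.61, adjusted p = 0.0475), in the difference between day effects, where edgeR called 0 in each. The cause of these moves was not tested. Replicate numbers did not pair the samples (r of same-numbered deviations from -0.35 to 0.24), and the numbers were not taken as pairs.

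Log2 fold changes that changed sign were uncalled before and after. With the doubted pair left out they were 0.0155 for Nr3c1 between days in TBI, -0.0587 for Errfi1 in the difference, and -0.52 for Sgk1 and -0.11 for Errfi1 in TBI against sham at day 1. Sgk1 was 0.0183 in the difference with the replicate block, and -0.0434 in limma-voom and -0.0881 with the covariate in TBI against sham at day 1. With 1 sample left out, Nr3c2 ran from -0.0692 to 0.50 between days in sham and Nr3c1 from -0.16 to 0.0165 in TBI. In the difference Sgk1 ran from -0.33 to 0.29 and Errfi1 from -0.13 to 0.32, and in TBI against sham at day 1 Sgk1 ran from -0.26 to 0.36 and Errfi1 from -0.18 to 0.27. At day 14 the ranges were -0.27 to 0.0928 for Zbtb16, -0.38 to 0.14 for Pdk4, -0.15 to 0.10 for Errfi1, -0.0349 to 0.11 for Nr3c2 and -0.0462 to 0.28 for Sgk1.

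Over all tested genes, TBI against sham gave 651 calls in place of 2458 at day 1 and 1108 in place of 571 at day 14 with only the groups compared, 922 at day 1 without sham day 1 replicate 2 and 873 at day 14 without the doubted pair. The sham day effect gave 943 in place of 2464 without sham day 1 replicate 2 and 1329 to 1492 without sham day 14 replicate 1, 2 or 4. The difference gave 278 in limma-voom, 1053 in DESeq2, 179 with the covariate, 250 to 281 without sham day 14 replicate 1, 2 or 4, 312 without TBI day 14 replicate 1 and 1000 without the doubted pair, in place of 474. With 2 sham day 1 samples the SE of the sham log2 fold changes ran from 0.14 for Tsc22d3 to 0.46 for Pdk4, so smaller changes may have been missed.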
